A study of Trichoderma reesei with 4 samples.

Results

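The transcripts of the filamentous fungus Trichoderma reesei were compared between vegetative mycelium and sporulating culture 3 h after the mycelial sample. All 9126 of the 9126 features of the array were taken, so that no feature was chosen for its response, and 2 of the 4 samples of the series entered the difference. Both samples came from strain QM9414, an early mutant selected for cellulase production whose phenotype the labels call low cellulase producing. The fungus was stocked on potato dextrose agar and grown on malt extract agar, on which conidia form, with cellophane between agar and mycelium. Spore formation was followed under the microscope and by LXR1, a D-mannitol dehydrogenase. Samples were taken as mycelium at 0 h and as sporulating culture at 3, 6 and 9 h, and each deposited sample is the mean of 2 biological replicas. No culture that was kept from sporulating was sampled at 3 h, so sporulation and time on the plate cannot be told apart.

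Conidia are the asexual spores of moulds and are cut off from aerial branches of the mycelium, usually after the colony meets air, light or a shortage of nutrients. Hydrophobins, small secreted proteins that gather at surfaces, coat aerial hyphae and spores and make them water-repellent. T. reesei is best known for its secreted cellulases, in which cellobiohydrolases and endoglucanases cut the cellulose chain and beta-glucosidases split the released cellobiose into glucose. In a bulk sample of a colony, fewer cells of a type and less RNA per cell cannot be told apart.

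RNA was measured on a 1-colour array of predicted genes carrying the dye Cy3, and levels are given as log2 signal after the authors' RMA normalization, so that a difference of 1 is a 2-fold change. Levels ran from 3.87 to 15.89 at 0 h and from 3.88 to 15.93 at 3 h, with medians of 11.56 and 11.53. The 2 replicas of a time had a median SD of 0.0981 at 0 h and 0.0992 at 3 h. The number of arrays limits the precision, and the difference between the times had a median SE of 0.12. A feature was called when limma's moderated test gave a Benjamini-Hochberg adjusted p under 0.05 and the change was at least 2-fold. Called features are written as having risen or fallen. The marker of sporulation lxr1 met both conditions, rising from 11.96 ± 0.20 to 13.33 ± 0.12 (SD, n = 2), a change of 1.37 ± 0.14 (SE, adjusted p = 1.40e-04).

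By 3 h, 618 features had risen, 6.77% of those tested, and 438 had fallen, 4.80%. The most frequent response was a small one. The median change over all features was -0.05 and the median absolute change was 0.32, or 1.25-fold. The central part of the distribution, between the 25th and 75th percentiles, lay between -0.35 and 0.27. More features had a negative difference (5056, 55.4%) than a positive one (4069), yet calls and large changes were more frequent on the higher side. The 1st percentile of the change was -1.90 and the 99th was 2.79, and the SD over all features was 0.83.

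Without the fold condition, 1822 features (20.0%) were higher and 2177 (23.9%) were lower at the same adjusted p, so the balance of the counts depended on the size asked for. With 2 replicas a time, the replica values of a feature follow from its mean and SD. They did not overlap between the times for 2868 features that were higher (31.4%) and 3514 that were lower (38.5%), together 69.9%. All 618 risen and all 438 fallen features were among these, but overlap was computed from the same means and SDs as the calls. With 2 values a time, unchanged features can also separate, so the 69.9% is no share of changed features. The 2-fold line cut through a dense part of the distribution. Just inside it, at changes of 1 to 1.1, 80 features had risen and 85 had fallen, and just outside, at 0.9 to 1, 90 higher and 107 lower features had the adjusted p alone.

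From 2-fold up, risen features outnumbered fallen ones at every size looked at. At 1.5-fold, 1172 had risen and 1184 had fallen. At 4-fold or more (log2 of 2), 187 features had risen and 85 had fallen, at log2 of 4 the numbers were 38 and 18, and at log2 of 6 they were 12 and 4. Differences of 8 or more were measured for 5 features, all risen. They were cip2 (8.95 ± 0.11), TRIRE2_54219 (8.77 ± 0.14), axe1 (8.34 ± 0.13), cip1 (8.21 ± 0.29) and cel5a (8.07 ± 0.24). The level of cip2 in mycelium was at background, so that the fold of its rise has only a lower bound. The cel5a gene encodes an endoglucanase, axe1 an acetyl xylan esterase that removes acetyl groups from the hemicellulose xylan, and cip1 and cip2 encode proteins with a cellulose-binding module that are made with the cellulases. The deepest fall was that of TRIRE2_82623 (-7.45 ± 0.11).

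**Figure D1:**
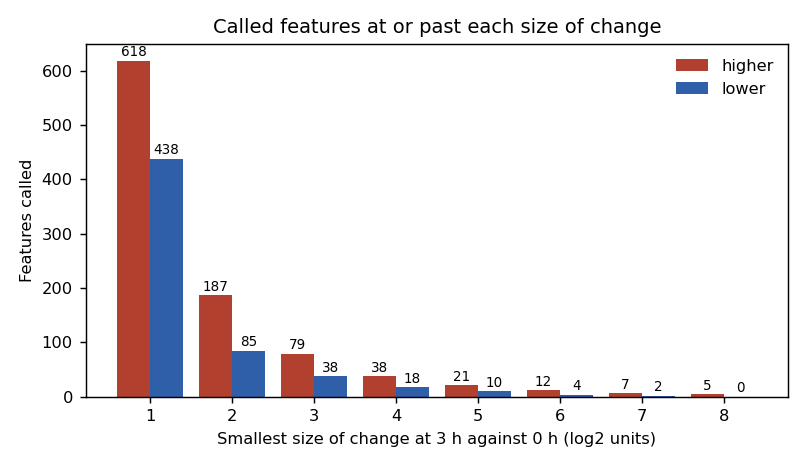
Number of called features (vertical axis) whose change between 0 h and 3 h was at least the log2 size on the horizontal axis, with risen features in red and fallen ones in blue. The bars go from 618 and 438 at a size of 1 to 5 and 0 at a size of 8.

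Risen and fallen features started at different levels. The risen features had a median level of 9.67 at 0 h, with quartiles of 7.76 and 11.38, against 11.56 for all features, and 485 of them (78.5%) started below that overall median. At 3 h their median was 11.67, about the middle of the array. The fallen features started at a median of 11.64, with quartiles of 10.25 and 12.87, so their start was that of a typical feature. They ended at a median of 9.93. The median rise was 2.96-fold and the median fall 2.49-fold.

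**Figure D2:**
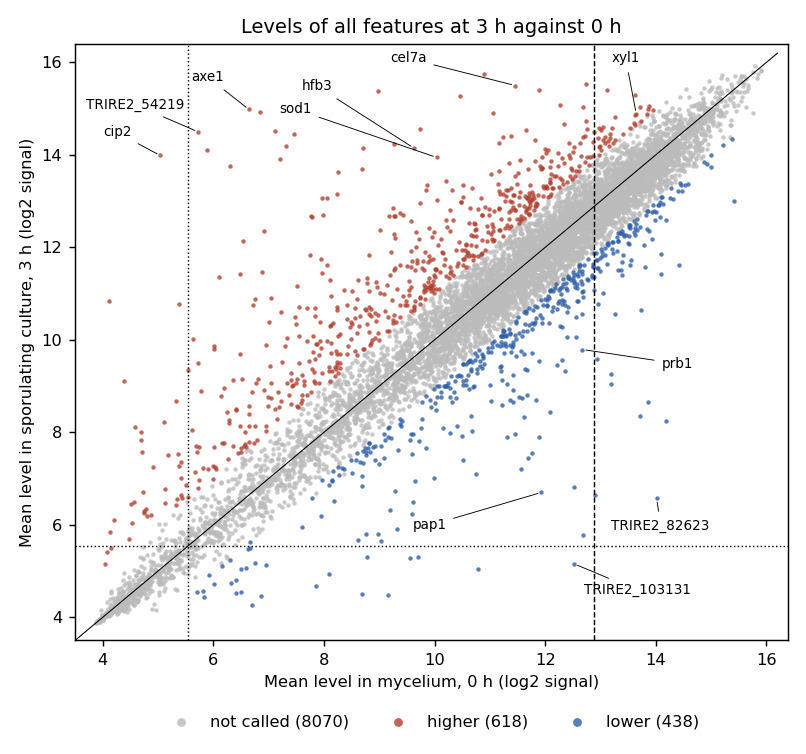
Mean log2 level at 3 h (vertical) against 0 h (horizontal) for all 9126 features, with risen features in red (618), fallen ones in blue (438) and the others in grey. The solid line marks equal levels, the dotted lines the background limit of 5.53 and the dashed line the 75th percentile at 0 h, 12.88. The risen features with the longest distance from the line start at the left of the plot, as cip2 and axe1 do, and few start beyond the dashed line, as xyl1 does.

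Features were then divided by their level in mycelium. A limit of background was read from 3 features for genes of the MAT1-1 mating type, which the lineage of this strain, of the other mating type, should lack. Their means at 0 h and 3 h were at most 5.53, and this value was taken as the limit. At or below it lay 580 features at 0 h and 574 at 3 h, of which 516 were there at both times. The other classes were low (above the limit and under the 25th percentile, 9.57), middle, and high (from the 75th percentile, 12.88).

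Rises were most frequent in the low class, in which 258 of 1702 features (15.2%) rose and 80 (4.70%) fell. In the background class 38 of 580 rose (6.55%), in the middle class 288 of 4562 (6.31%) and in the high class 34 of 2282 (1.49%). Falls had a nearly even frequency above background, with 5.48% of the middle and 4.73% of the high class, and no feature at background was called lower, where little room was left below. The low class also held most of the large rises. There, 110 measured rises were 4-fold or more, against 13 from background, 63 from the middle class and 1 from the high class. The low class was also the noisiest, with median SDs of 0.161 at 0 h and 0.205 at 3 h against 0.0932 and 0.0919 in the middle class.

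The level at 0 h enters both the class and the change, so the 2 are not independent. Features were therefore also ranked by the mean of the 2 times and by the level at 3 h. By the level at 0 h, the second decile of features from the bottom held 16.1% risen and 4.16% fallen features and the top decile 0.219% and 4.05%. By the mean of both times, the shares were 12.3% and 7.56% in the second decile and 2.30% and 1.42% in the top decile. By the level at 3 h, they were 8.11% and 10.2%, and 9.75% and 0.438%. Under the first 2 rankings, risen features thus made up a larger share of the second decile than of the top decile. Under the ranking by 3 h this order was turned. Whether rises or falls prevailed at high level also depended on the ranking. Among features of the high class at 0 h, 34 rose and 108 fell, and with the class taken from the mean of both times 85 rose and 51 fell.

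**Figure D3:**
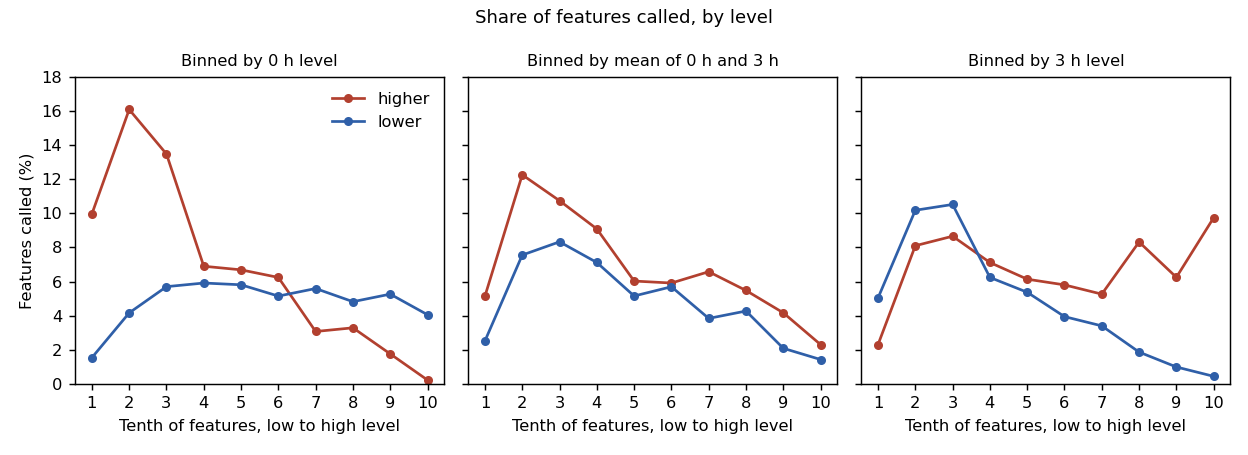
Percent of features that rose (red) or fell (blue) in each decile of the features, ordered from low to high by the level at 0 h (left), by the mean of 0 h and 3 h (middle) or by the level at 3 h (right). The second decile holds 16.1%, 12.3% and 8.11% risen features in the 3 panels, the largest share of its panel in the left and middle ones and not in the right one, and the order of rises and falls in the top decile changes between the left panel and the others.

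With the limit at 5.53, features switched on from background mostly reached only a low level. Of the 38 features that rose from background, 35 passed the limit by 3 h, which is 6.03% of those at background in mycelium, and the other 3 ended at or below it. The number depends on the limit, and was 66 with a limit 1 log2 unit higher and 72 with a limit at the 10th percentile of the array. The 35 had a median level of 4.88 at 0 h and 6.78 at 3 h, a median measured change of 1.92 (1.25 with the level at 0 h set to the limit), and 32 of the rises from background ended in the low class. At 3 h, 3 of the 35 had reached the 25th percentile of the array and 1 its median. Their replicas lay farther apart at 3 h (median SD 0.325) than at 0 h (0.122). At 6 h, 29 of the 35 were above the limit, and at 9 h 25 were.

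With the limit at 5.53, the 1 feature switched on to a high level was cip2. Its replicas were 5.03 and 5.05 in mycelium and 13.93 and 14.05 at 3 h, so the 2 samples were far apart and each was closely repeated. The measured difference was 8.95 ± 0.11 (adjusted p = 6.61e-09), and set against the background limit the rise was at least 351-fold. The second largest rise from background was that of TRIRE2_76210, with replicas of 4.05 and 4.19 at 0 h and a mean of 10.83 ± 0.01 (SD, n = 2) at 3 h, a measured change of 6.71 ± 0.24 and a rise of at least 39.4-fold. Its mean was down to 6.16 at 6 h and 6.31 at 9 h. TRIRE2_70197, the next, went from replicas of 5.05 and 5.70 at 0 h to a mean of 10.77 ± 0.20 at 3 h, a measured change of 5.39 ± 0.21 and a rise of at least 37.6-fold, and stood at 9.84 and 10.32 at 6 h and 9 h. The lower replica of TRIRE2_70197 in mycelium was below the background limit and the upper one above it. The only other gene with a symbol that rose from background was chi18-8, of the glycoside hydrolase family 18 of chitinases, from 4.56 ± 0.12 to 6.50 ± 0.15, or at least 1.95-fold.

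Fewer features were switched off than on. From above the limit, 28 fell to it or below, most of them from close by, since their median was 6.64 at 0 h and 4.93 at 3 h, which is a median fall of 1.11 when the level at 3 h is set to the limit. Of the 28, 3 had started at or above the 25th percentile and 1 above the median. That 1 was TRIRE2_103131, with replicas of 12.45 and 12.60 in mycelium and 5.03 and 5.28 at 3 h, a measured change of -7.37 ± 0.13 (adjusted p = 2.70e-08), which was a fall of at least 127-fold against the limit. The family 18 chitinase genes chi18-17 and chi18-14 were among the 28 and started just above the limit, at 5.82 ± 0.37 and 5.71 ± 0.21, and had measured changes of -1.38 and -1.16. The switched-off features mostly stayed so, with 10 above the limit at 6 h and 7 at 9 h.

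The steepest rises thus started near background or from the low class, and the genes of cellulose and hemicellulose breakdown gave most of the named ones. Of 9 cellulase and accessory genes, 8 rose and 0 fell, where 6.77% of all features rose and 4.80% fell. Their median change was 7.39 against -0.05 for all features. In mycelium 1 of the 9 was in the high class and at 3 h all 9 were, so genes spread over a wide range of levels came together between 13.06 and 15.50. The replicas of axe1 were 6.62 and 6.67 at 0 h and 14.95 and 15.02 at 3 h, a 325-fold rise. Those of cip1 were 5.39 and 6.39, then 14.01 and 14.20, and those of cel5a 6.45 and 7.26, then 14.80 and 15.04. None of these 3 genes had overlapping replicas, and cip1 was at the background limit in mycelium, since its replicas lay on either side of it. An exception to low starts was cel7a, the gene of the major cellobiohydrolase, which rose from 11.33 and 11.58 to 15.45 and 15.55, or 16.5-fold, to the highest level of the group. The exception to rising was cel5b, a further endoglucanase gene, at 13.47 ± 0.02 in mycelium and 13.79 ± 0.04 at 3 h (adjusted p = 0.0674).

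Within the cellulase genes the replicas were farther apart in mycelium than at 3 h, with median SDs of 0.380 and 0.0915, and 6 of the 9 had the larger SD at 0 h. Over all features 48.7% had the larger SD at 0 h. The 5 beta-glucosidase genes had median SDs of 0.199 and 0.0416, all 5 with the larger one at 0 h, and the 3 hydrophobin genes 0.493 and 0.0902, with 2 of the 3. The 3 hemicellulase genes went the other way, with 0.0353 and 0.0755 and 1 of the 3. The SD also varied with level, with medians at 0 h of 0.161 in the low class and 0.0876 in the high class. Whether the rise in level accounts for the closer replicas at 3 h was not tested.

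Beta-glucosidase genes started at levels from 7.77 to 14.15. Of 5 genes, 4 rose, against 6.77% of all features, with a median change of 2.31. The size of the rise went down as the level in mycelium went up, with cel3a (an extracellular enzyme) at 7.77 ± 0.45 rising by 4.90, cel3c at 10.52 ± 0.14 by 2.58, cel1a at 12.35 ± 0.64 by 2.31 and cel1b at 13.17 ± 0.10 by 1.20. The fifth, cel3b, was highest in mycelium, at 14.15 ± 0.20, and stood at 14.20 ± 0.11 at 3 h (adjusted p = 0.775). All 5 lay between 12.67 and 14.66 at 3 h. As the change contains the level at 0 h, this order is in part given by the arithmetic. Of the hemicellulase genes, man5a, a mannanase gene, rose by 4.08 from 7.76 ± 0.43, and axe2, a further acetyl xylan esterase gene, had a change of 0.31 (adjusted p = 0.0371), under 2-fold.

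Regulators of these enzymes were well expressed before the change, with a median level of 12.74 over 9 genes. The activator gene xyr1 rose by 1.10 ± 0.10, from 12.45 to 13.55 with SDs of 0.004 and 0.02, and was the only 1 of the 9 that was called, against 6.77% of all features. All 9 differences were positive, as were 4069 of the 9126 over all features, with a median of 0.25. At the adjusted p alone 3 of the 9 were higher, against 20.0% of all features. The carbon catabolite repressor gene cre1 was at 14.34 and 14.77, a change of 0.42 (adjusted p = 0.00597), and ace1, which encodes a repressor of cellulase genes, was at 14.25 and 14.26 (adjusted p = 0.927).

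Of 3 hydrophobin genes, 2 rose from the middle of the scale, against 6.77% of all features. Replicas of hfb3 were 9.24 and 10.02 in mycelium and 14.13 and 14.16 at 3 h, a change of 4.52 ± 0.23 or 22.9-fold (adjusted p = 3.73e-06). Those of hfb2 were 10.81 and 11.51, then 14.19 and 14.32, a change of 3.10 ± 0.20. Both genes had replicas that lay apart in mycelium and close together at 3 h. The remaining member, hfb1, was in the low class at 8.22 ± 0.15 and had a change of -0.50 that did not pass (adjusted p = 0.0859). The superoxide dismutase gene sod1, which serves in the removal of superoxide, also rose from the middle class, from 9.70 and 10.37 to a mean of 13.95 ± 0.08, a rise of 3.91. The catalase gene cat1 was at background at both times, with 4.22 and 4.21.

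The largest rises from the middle class were those of 3 genes without a symbol in the gene table. TRIRE2_123818 went from 10.89 ± 0.02 to 15.76 ± 0.03, near the top of the scale. TRIRE2_121127 went from 9.73 ± 0.003 to 14.56 ± 0.01 and TRIRE2_123992 from 10.46 ± 0.06 to 15.27 ± 0.03. Their rises were 4.87, 4.83 and 4.81, and their replicas were closer than the median feature at both times.

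Rises from the high class were few and small. The 34 features had a median rise of 2.29-fold, and 1 of them was raised 4-fold or more. That feature was TRIRE2_50894, with replicas of 13.06 and 13.18 in mycelium and 15.31 and 15.49 at 3 h, a change of 2.28 ± 0.11 (adjusted p = 3.57e-06). After it came TRIRE2_62872, from 13.63 ± 0.10 to 15.30 ± 0.16, and TRIRE2_42848, from 12.88 ± 0.20 to 14.50 ± 0.01. With a symbol there were 2, cel1b, given above, and xyl1, which encodes the D-xylose reductase of pentose use. The replicas of xyl1 were 13.55 and 13.75, then 14.84 and 14.94, a rise of 1.24 ± 0.10 or 2.36-fold. The high class began at 12.88 and the highest level at 3 h was 15.93, which bounds the rise that could be measured. Whether this kept the rises small was not tested.

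With the class set by the level at 0 h, falls from the high class were more frequent than rises and reached farther. The order of the counts was turned with the class taken from the mean of both times, 85 risen and 51 fallen. By the level at 0 h there were 108 falls, with a median of 2.32-fold, of which 17 were 4-fold or more. At 3 h, 23 of the 108 were still at or above the 75th percentile, 19 had fallen under the median of the array and 7 under its 25th percentile. The farthest was TRIRE2_82623, whose replicas were 13.92 and 14.11 in mycelium and 6.55 and 6.59 at 3 h, a 175-fold fall (adjusted p = 1.34e-08). It went on to 5.53 at 6 h and 4.68 at 9 h. TRIRE2_80879 fell from 14.18 ± 0.16 to 8.25 ± 0.06, or 60.8-fold, and TRIRE2_103134 from 12.91 ± 0.06 to 6.64 ± 0.41. None of the 3 has a symbol in the gene table.

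All the fallen genes of the high class with a symbol, 9 in number, encode ribosomal proteins. Of 42 ribosomal protein genes measured, 40 were in the high class at 0 h and 35 at 3 h. All 42 had a negative difference, with a median of -0.76, and 10 fell by 2-fold or more (23.8%, against 4.80% of all features). The rpl5 gene fell from replicas of 14.35 and 14.58 to 13.17 and 13.25, and rps12 from 14.26 and 14.36 to 13.05 and 13.07, neither with overlap. The proteasome and ubiquitin genes had 7 of 7 negative differences with a median of -0.58 and 0 called, and 6 of the 7 passed the adjusted p alone. The largest of these was psa7, of a 20S proteasome subunit, at -0.82 ± 0.13. Over all features, 55.4% had a negative difference, 23.9% were lower at the adjusted p alone and 11.6% were called.

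**Figure D4:**
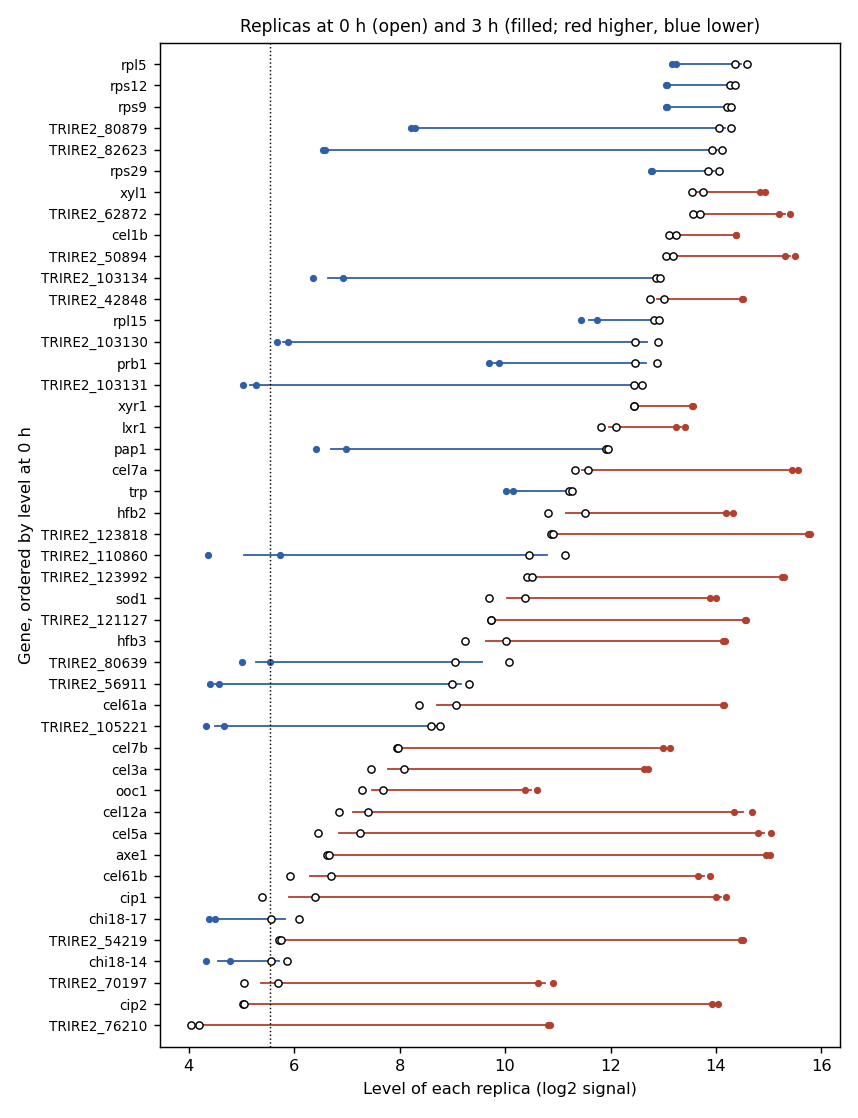
Log2 level of each of the 2 replicas at 0 h (open circles) and 3 h (filled circles) for named genes, ordered by level in mycelium, with a line joining the means, red for risen and blue for fallen genes and a dotted line at the background limit of 5.53. Long red lines start at the bottom of the plot, as for cip2, axe1 and cip1, and short ones at the top, as for xyl1 and cel1b, and long blue lines start near the top, as for TRIRE2_82623.

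Fallen genes with a symbol and a start outside the high class were few. The gene pap1 fell from replicas of 11.92 and 11.95 to 6.42 and 6.98, a change of -5.23 ± 0.20 or 37.6-fold. The serine protease gene prb1 fell from 12.46 and 12.89 to a mean of 9.79 ± 0.14, a change of -2.88 ± 0.19. Both moved well past the spread of their replicas.

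Several lists of genes for the basic running of the cell held no called member. Over all features, 11.6% were called in either direction. Most genes of these lists were in the high class, of which 1.49% rose and 4.73% fell. A count of 0 in a short list is near these shares. The 5 histone genes had a median of 14.96 in mycelium and 14.95 at 3 h, with changes from -0.15 to 0.09 and 0 with an adjusted p under 0.05. Of 15 genes of central carbon and energy metabolism, 14 were in the high class and 0 were called, with changes from -0.75 to 0.83. Among these, acu9, named as the malate synthase gene of Neurospora crassa, had a change of 0.83 ± 0.10 and idh2, of mitochondrial isocitrate dehydrogenase, a change of -0.75 ± 0.11. Both passed the adjusted p (4.93e-04 and 0.00109) and not the fold.

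Of 13 genes of the secretory pathway, 0 were called, against 11.6% of all features. At the adjusted p alone, 3 were higher and 2 lower, against 20.0% and 23.9% of all features. Their changes ran from -0.46 to 0.82, with a median of 0.02. The largest of them was pdi1, the gene of protein disulfide isomerase, which helps secreted proteins to fold, at 0.82 ± 0.10 (adjusted p = 4.81e-04). Of 31 signalling genes, 0 were called, against 11.6% of all features, and the median change was 0.03. The highest was nik1, which encodes a histidine kinase, at 0.95 ± 0.13 (adjusted p = 7.71e-04), just under 2-fold. Of 4 light response genes 2 rose, against 6.77% of all features. These were env1, the gene of a blue-light photoreceptor, by 1.45 from 10.49 and phr1, of a DNA photolyase, by 1.48 from 7.83. The gene blr1, of the blue-light receptor complex, had a change of 0.51 from 13.18.

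The 20 genes of chitin degradation, which also serves the remodelling of the cell wall, had a median change of -0.10, and 3 rose and 2 fell, where 6.77% of all features rose and 4.80% fell. The rises beside that of chi18-8 were those of chi18-rel1, by 1.63 from 12.31, and chit18-11, by 1.07 from 8.73. Of 9 genes of sugar and polyol conversion, lxr1 and xyl1 rose and 0 fell, against the same 6.77% and 4.80% of all features. Their median change was 0.18. Of 4 translation factor genes, 0 were called, against 11.6% of all features, and the median change was -0.46. The largest change was that of cpc2, of a protein that sits on the ribosome, at -0.96 ± 0.13 (adjusted p = 6.09e-04).

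The genes that can be named are no fair sample of the array. The 235 features with a symbol had a median level of 13.51 in mycelium, against 11.56 for all features, and 146 of them (62.1%) were in the high class. Of the 1056 called features, 1014 had no symbol. Among the 235 features with a symbol, 27 rose and 15 fell, where 6.77% of all features rose and 4.80% fell.

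Risen genes were often next to each other. Genes were taken in the order of the RefSeq table, with a new scaffold counted wherever the start position fell. Of 616 placed risen genes, 215 (34.9%) had a risen gene beside them, against 940 of the 8478 other measured genes (11.1%). For fallen genes the shares were 95 of 438 (21.7%) against 738 of 8656 (8.53%). Runs of 3 or more adjacent genes held 83 risen genes in 23 runs and 31 fallen genes in 9 runs. No chance test was made for these shares, and whether neighbouring copies of a gene share probes was not tested. The runs named here were singled out after their values had been seen.

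A first run was made of axe1, cip1 and cel61a, the last of which encodes a lytic polysaccharide monooxygenase and rose by 5.43 ± 0.20. The genes around this run did not share its rise, since TRIRE2_102499, second to the left, fell by 2.94 and TRIRE2_102504, on the right, was at 4.26 and 4.43, under the background limit. In a second run TRIRE2_121127, among the 3 largest rises of the middle class, lay beside cel3a (4.90 ± 0.19), with TRIRE2_59402 (1.31) and TRIRE2_105816 (1.57) following. The next gene, TRIRE2_3267, fell by 1.80. The longest run of risen genes held 6, from TRIRE2_58701 (1.30) to TRIRE2_76230 (3.22), and none of them has a symbol.

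The longest run of fallen genes held 7, and 3 of the 5 deepest measured falls of the array were in it. These were TRIRE2_103131 (-7.37), TRIRE2_103130 (-6.90 ± 0.15) and TRIRE2_103134 (-6.27 ± 0.18). The members differed in level and in size of change. TRIRE2_103132 fell from 13.15 to 12.06 and was still at a middle level at 3 h, while TRIRE2_103133 next to it started at 6.86 ± 0.79 and ended at 4.47 ± 0.12. The changes of TRIRE2_54954 and TRIRE2_103129 were -3.12 and -2.70. The genes directly on either side of the run were not called.

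**Figure D5:**
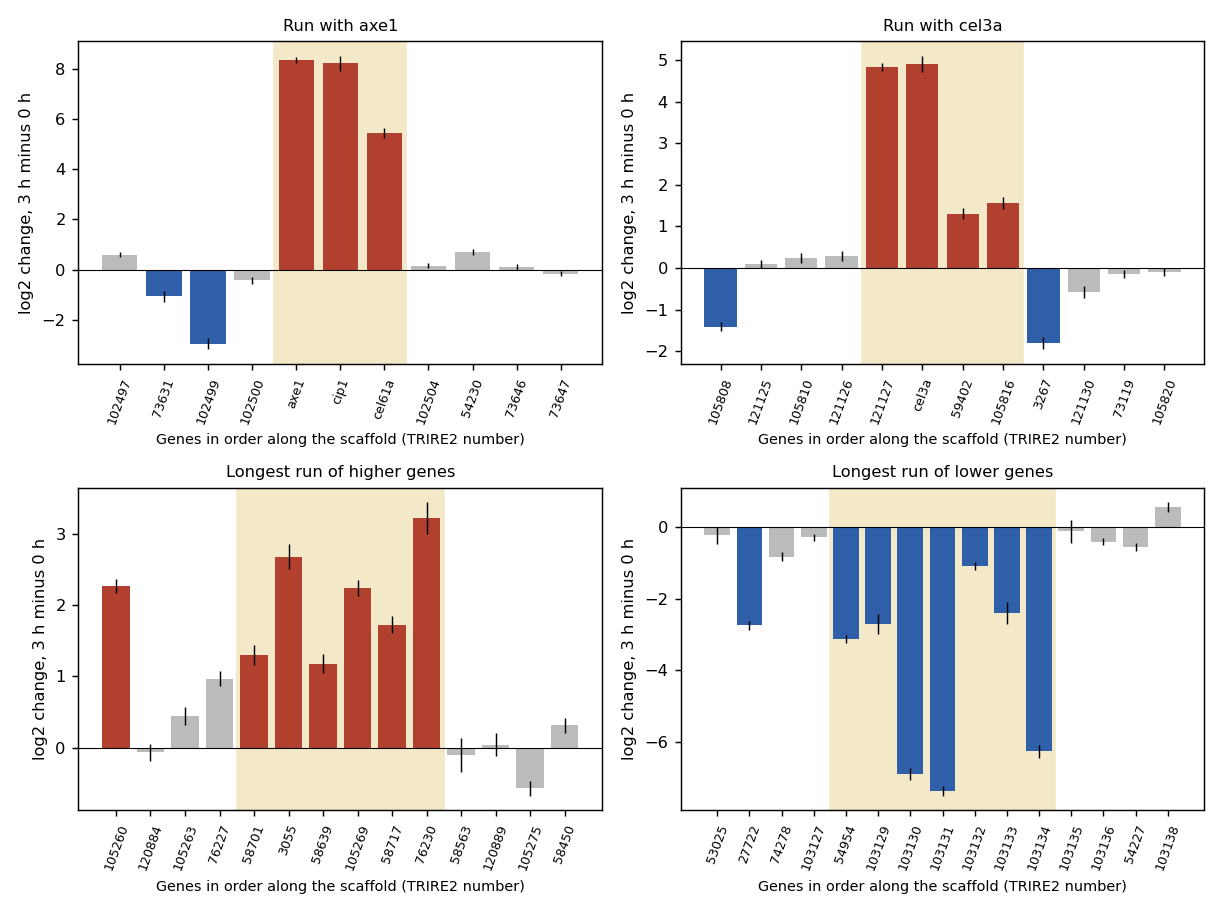
Log2 change at 3 h against 0 h, with its SE as a vertical line, for the genes of 4 runs (shaded) and 4 genes on either side, in the order in which they lie along a scaffold, red for risen, blue for fallen and grey for genes that were not called. The vertical scales differ between panels, and the genes directly beside each run were not called, except TRIRE2_3267 after the run with cel3a, which fell by 1.80.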

How the data were processed

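The authors deposited log2 values, per the file headers, made with RMA, per the submitters' processing notes, as a mean and an SD for each time, with 1 p-value per feature over the 4 times. The RMA version and the genome build are not given in the sources used here. An analysis of variance from the means and SDs with 2 replicas, adjusted over all features, gave the authors' p-value within 1% (plus rounding) for 9126 of 9126 features, so the SD is that of 2 replicas. The design foresaw replica columns or single values. The tables held means and SDs, from which the residual variance of limma follows (4 residual degrees of freedom, prior degrees of freedom 3.82). All 4 times were fitted together and p-values adjusted over 9126 features. The computation was tested on simulated data. Replica values were taken as the mean plus and minus the SD over the square root of 2, and replicas are not linked between features.

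Symbols and gene order came from the RefSeq table of the QM6a assembly v2.0, which listed 9094 features. It names no scaffolds, so these were inferred from falls in the start position, and a border without such a fall would be missed. Named genes were members of 16 symbol lists, up to 5 called per list, the 10 largest rises and falls with a symbol, and the 3 largest changes in each class of level. Members and lists were chosen with earlier results of these data known. Not every member is reported here by name. Alternatives were other thresholds, filters, centring, quantile normalization, a trended prior and the authors' p-value. R 4.3.3, limma 3.58.1, Python 3.11.15, pandas 2.3.3, scipy 1.17.1 and matplotlib 3.10.9 were used.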

Additional observations from a re-analysis of the deposited data

How the results depend on the processing

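The main counts were 618 risen and 438 fallen features, 35 switched on, 28 switched off, 34 raised and 108 lowered from a high level. At 4-fold they were 187, 85, 13, 11, 1 and 17. At 1.5-fold they were 1172 risen, 1184 fallen, 118 raised and 336 lowered from a high level, with on and off within 1.5 times of the main count. Without features of low mean level over the 4 times, 290 fell and 0 were switched on or off. That filter leaves out features whose mean is pulled down by levels near background. With the background limit 1 log2 unit higher 66 were switched on, and with the limit at the 10th percentile 72. High level from the 90th percentile gave 2 raised and 37 lowered, and by the mean of 0 h and 3 h 85 and 51. Fitting 0 h and 3 h alone, median centring, quantile normalization, a trended prior, the authors' p-value (added after seeing the data) and genes of the gene table alone (also added) kept each count within 1.5 times. Of 202 named genes, 4 changed sides and 0 reversed. Among them, rps14 and rpl28 missed 2-fold under median centring, and rla0 passed it under quantile normalization. The share of risen genes beside a risen gene was 27.3% at 4-fold (3.45% of other genes) and 41.6% at 1.5-fold (20.8%), and that of fallen genes 31.8% (1.49%) and 32.3% (22.9%), alternatives added after seeing the data. Leaving out a replica was not run, since the tables hold means and SDs. No paired analysis was possible because the columns carry no replica numbers. Near background, signal over background limits which changes can be measured.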
